A study of Mus musculus with 6 samples.

Results

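The genes described here are the p53 pathway and the inhibitors of cyclin-dependent kinases, measured in fibroblasts of Lmna mutant mice. The list held 33 genes, p53 itself (Trp53) and genes known as its targets or as cell cycle inhibitors. Each was read from the probe set that the platform's annotation gave to that 1 symbol alone, and where a gene had several, from the one with the highest mean over the 6 samples. By that rule 31 of the 33 genes were measured, of 18193 genes in all. Trp53 and Bax had no probe set of their own name in the annotation used and were not analysed here, so p53 was followed through its targets and not through its own transcript.

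Delta9 is an allele of Lmna, the gene of lamin A and lamin C, and is used as a mouse model of premature ageing. The 3 Delta9 and 3 wild-type (WT) samples were primary fibroblasts of mice of strain C57bl6X129S3/J, labelled adult in one place and post-natal in another, from lines of siblings. All 6 shared passage 3 and 72 hours without serum before RNA was taken, so no serum-fed culture is in the comparison. Whether 1 or both copies of Lmna carried the allele is not given in the sources used here, nor is the number of mice, so the p-values cover only the spread among the 6 arrays, which may be technical. Lmna was 3.90-fold lower in Delta9 (difference -1.96, SE 0.28, adjusted p 0.0899 by limma with Benjamini-Hochberg adjustment), in 3 of 3 samples, but the place of that probe set in the gene was not settled, so this does not check the labels.

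The p53 protein is a transcription factor that is kept low by the ubiquitin ligase Mdm2 and is stabilised when DNA is damaged or cells are stressed. It then induces genes that stop the cell cycle, repair DNA, restrain growth or start cell death, and Mdm2 itself, which closes a feedback loop. The Cip/Kip proteins p21 and p27 and the INK4 proteins bind and block the kinases that drive cells out of the resting state. Cells without serum rest through these inhibitors, and fibroblasts with damaged lamins are known for p53 activation and early senescence.

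The promoters of 5 of these genes are shown because their signals fell into different patterns over the samples, described below. Each line gives the 250 bases before a transcription start from RefSeq, build GRCm38.p6, 5′ to 3′ on the gene's strand. Capitals mark matches to the p53 consensus decamer, 3 purines, C, 2 bases of A or T, G and 3 pyrimidines, which reads the same on both strands, and any neighbouring decamer that pairs with it at a spacing of at most 2 bases with at most 1 mismatch over the pair.
Cdkn1a, chr17:29090729-29090978, + strand: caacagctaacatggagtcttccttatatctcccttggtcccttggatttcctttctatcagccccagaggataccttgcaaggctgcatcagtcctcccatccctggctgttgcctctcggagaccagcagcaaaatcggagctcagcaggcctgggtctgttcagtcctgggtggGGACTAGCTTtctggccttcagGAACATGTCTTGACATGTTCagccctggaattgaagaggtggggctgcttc
Ccng1, chr11:40755287-40755536, - strand: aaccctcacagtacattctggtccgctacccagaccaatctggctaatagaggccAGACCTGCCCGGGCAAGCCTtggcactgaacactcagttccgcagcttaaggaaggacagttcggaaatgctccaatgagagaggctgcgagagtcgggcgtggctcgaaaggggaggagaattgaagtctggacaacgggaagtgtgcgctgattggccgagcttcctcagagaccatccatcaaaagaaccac
Mdm2, chr10:117710759-117711008, - strand: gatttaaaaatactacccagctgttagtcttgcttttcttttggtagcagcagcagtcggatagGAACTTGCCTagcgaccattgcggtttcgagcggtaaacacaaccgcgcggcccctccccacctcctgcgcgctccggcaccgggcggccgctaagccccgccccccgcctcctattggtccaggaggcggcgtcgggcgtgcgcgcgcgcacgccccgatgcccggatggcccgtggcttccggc
Sesn1, chr10:41887189-41887438, + strand: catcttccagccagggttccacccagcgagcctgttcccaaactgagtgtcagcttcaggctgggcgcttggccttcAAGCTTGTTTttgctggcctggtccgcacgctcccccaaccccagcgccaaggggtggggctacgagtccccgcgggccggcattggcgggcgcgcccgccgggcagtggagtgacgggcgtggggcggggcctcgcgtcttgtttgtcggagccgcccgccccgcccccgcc
Cdkn1b, chr6:134920151-134920400, + strand: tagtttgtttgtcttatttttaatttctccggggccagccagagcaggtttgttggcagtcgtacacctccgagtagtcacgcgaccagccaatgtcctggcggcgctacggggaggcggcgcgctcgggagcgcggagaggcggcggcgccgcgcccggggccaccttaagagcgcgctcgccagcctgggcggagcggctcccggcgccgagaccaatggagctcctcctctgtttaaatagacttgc
Cdkn1a, at its upstream start, held a decamer pair with 1 mismatch, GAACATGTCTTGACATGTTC, at bases -51 to -32 before the start, and a further decamer at bases -73 to -64. Ccng1 held a pair with 1 mismatch, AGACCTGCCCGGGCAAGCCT, at bases -195 to -176. In Mdm2 and Sesn1 a lone decamer matched, and the Cdkn1b window held none. Of the 31 measured genes 25 matched a promoter entry by symbol, and 9 of those 25 had a decamer within 250 bases before or 50 after a start, against 9.55% of all 27025 genes with an entry. A pair occurred in 2 of the 25, Cdkn1a and Ccng1, against 0.189% of all genes. The list was built of known p53 targets, the windows miss sites farther away, and a match shows letters and not binding.

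No gene of the set passed the threshold of an adjusted p of 0.05 between Delta9 and WT. Over all genes 11 passed, or 0.0605%. The lowest adjusted p among the 31 was 0.425, for Dcxr, and the highest 0.999, for Phlda3. In the fit's unadjusted p-values, 2 of the 31 lay under 0.05, Btg2 and Dcxr, both higher in Delta9, where 4.54% of all genes were higher at that level and 10.6% were on either side. Mean levels were higher in Delta9 for 20 genes and lower for 11, with a median difference of 0.14 log2. Across all genes 46.8% were higher and the median was -0.01. With single samples left out the median of the 31 ran from 0.06 (without Delta9 replicate 1, with 16 genes higher) to 0.40 (without Delta9 replicate 3, with 25 higher). The differences ran from -0.50 for Perp to 0.82 for Btg2, so none of the 31 reached 1 log2, a size that 2.01% of all genes exceeded. Delta9 and WT values were fully separated for 1 of the 31, Dcxr, against 17.3% of all genes.

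**Figure D1:**
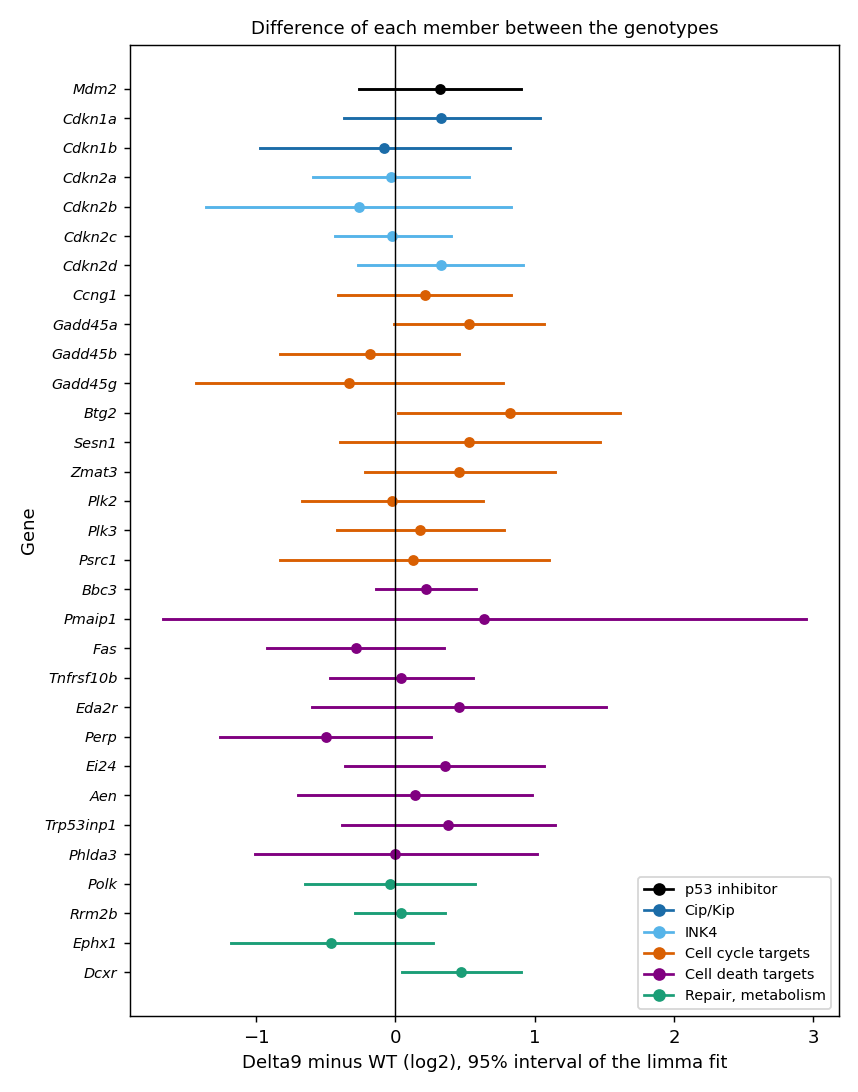
Difference of each of the 31 genes between the genotypes (x axis, Delta9 minus WT, log2), coloured by role. Points are the limma estimates and bars their 95% intervals from 3 against 3 samples; the intervals of Btg2 and Dcxr lie above 0, and the widest is that of Pmaip1, from -1.67 to 2.95.

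These genes varied more within each genotype than most genes did. The median standard error of a difference was 0.29 log2 over the 31, against 0.15 over all genes and 0.18 over genes at or above the median signal, where 28 of the 31 lay. Delta9 replicate 3 stood apart most often. It was the lowest of the Delta9 samples for 25 of the 31 genes (80.6%), against 43.1% of all genes and 51.5% of those at or above the median signal. That sample lay below the mean of the other Delta9 samples by a median of -0.66 log2 over the 31, against -0.03 over all genes. WT replicate 1 was the lowest of its group for 13 of the 31 (41.9%), against 45.4% of all genes, with a median of -0.33 against -0.06. Averaged over the 31 relative to each gene's mean, the WT samples lay at -0.23, -0.16 and 0.18, with WT replicate 3 highest. Delta9 replicate 3 and WT replicate 1 had the lowest signal of the poly-A spike-in transcripts, which are added to RNA before labelling. It was 5.20 on Delta9 replicate 3 and 4.85 on WT replicate 1, against 5.64 to 6.10 on the other 4 (log2). The part of what lowered that signal in the values of these genes was not tested.

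**Figure D2:**
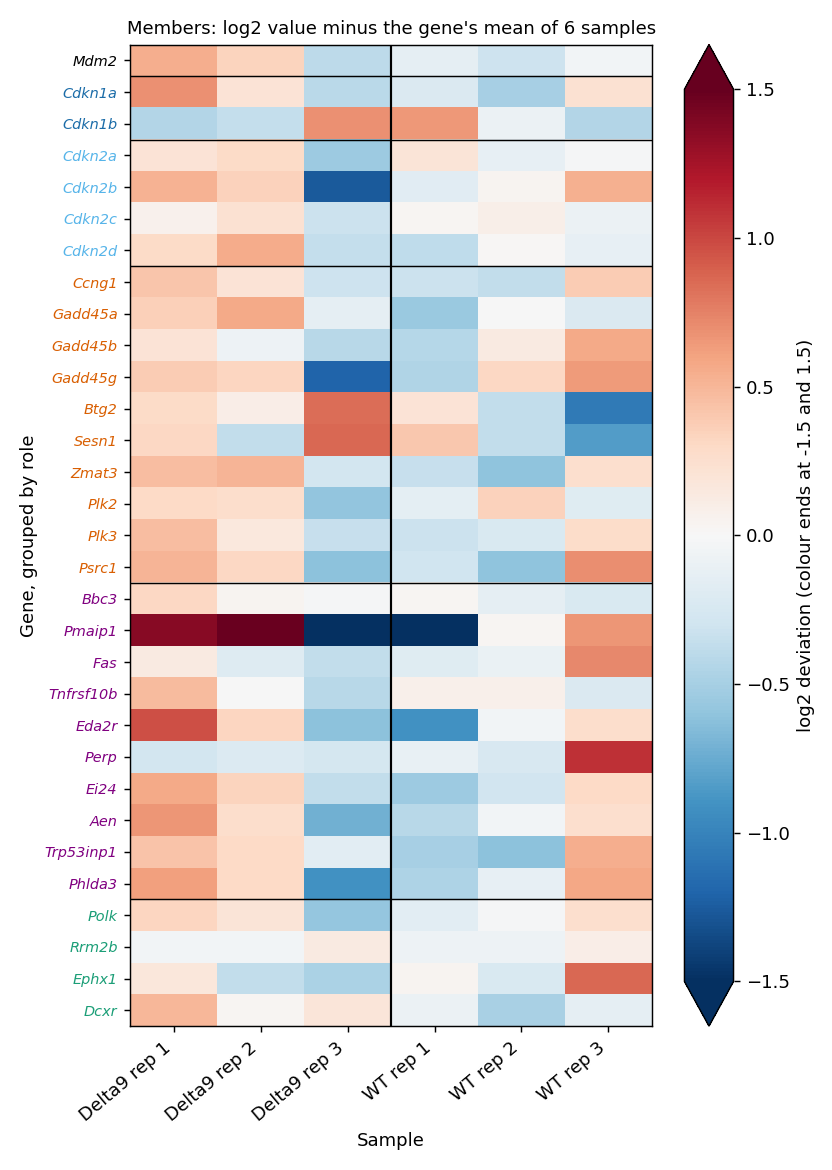
Log2 value of each of the 31 genes in each sample, minus that gene's mean over the 6 samples, with genes grouped by role (name colours) and a line between the genotypes. Red is higher and blue lower; the Delta9 replicate 3 column is mostly blue, with Cdkn1b, Btg2 and Sesn1 in red.

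Mdm2, the ligase that degrades p53 and is induced by it, read 8.48, 8.27 and 7.55 in Delta9, listed from replicate 1 to 3 here and below, and 7.80, 7.63 and 7.90 in WT (log2). The 2 higher Delta9 samples lay above every WT sample and the remaining one below every WT sample, so the groups overlapped. Its difference was 0.32 (SE 0.25, 95% interval -0.26 to 0.90, adjusted p 0.682), and 0.13 without Delta9 replicate 1 or 0.60 without Delta9 replicate 3. A second Mdm2 probe set, 1427718_a_at, read 6.57, 6.41 and 6.24 in Delta9 and 6.13, 5.69 and 4.84 in WT, without overlap. There the difference was 0.85 (SE 0.32), with an adjusted p of 0.514 over all probe sets. The last, 1457929_at, was near the bottom of the scale, at 2.24 on average, and differed by -0.01.

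Among the Cip/Kip inhibitors, Cdkn1a, which encodes p21 and is the main p53 target that arrests the cycle, read 10.98, 10.50 and 9.88 in Delta9 and 10.07, 9.79 and 10.52 in WT. Delta9 replicate 1 was the highest sample and WT replicate 2 the lowest, and the groups overlapped. The difference was 0.33 (SE 0.30, 95% interval -0.37 to 1.04, adjusted p 0.730), and its other probe set, 1421679_a_at, differed by 0.46 (SE 0.32). Without Delta9 replicate 1 the Cdkn1a difference was 0.07, and without Delta9 replicate 3 it was 0.62. Cdkn1b, which encodes p27, the inhibitor that accumulates in resting cells, showed another order. It read 6.30, 6.39 and 7.43 in Delta9 and 7.39, 6.66 and 6.30 in WT. Delta9 replicate 3, low for most of the set, was the highest Delta9 sample here, and WT replicate 1 the highest WT sample. The group means nearly coincided (difference -0.08, SE 0.38, 95% interval -0.97 to 0.82). Its other probe set, 1419497_at, was dim, at 2.72 on average, and differed by 0.23 (SE 0.14).

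The INK4 inhibitors block CDK4 and CDK6, the partners of D-type cyclins. Cdkn2a, the locus of p16 and p19Arf, whose rise marks senescent cells and whose Arf product restrains Mdm2, read 4.32, 4.40 and 3.56 in Delta9 and 4.30, 3.99 and 4.09 in WT. This is a weak signal, at the 43.0 percentile of the genes' mean signals, and which of the products the probe set reads was not determined here. The difference was -0.03 (SE 0.24), with a 95% interval from -0.59 to 0.53. Cdkn2b, the gene of p15, was at 7.58, 7.40 and 5.80 in Delta9 and 6.89, 7.10 and 7.59 in WT. Delta9 replicate 3 alone fell below the range of the WT samples, and the difference was -0.26 (SE 0.46). Cdkn2c, the gene of p18, had the narrowest range of the 4, from 6.63 to 7.18 over the 6 samples, and differed by -0.02 (95% interval -0.43 to 0.40). Cdkn2d, the gene of p19, differed by 0.33 (SE 0.25), with Delta9 replicate 3 at 6.38 inside the WT range of 6.36 to 6.76.

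**Figure D3:**
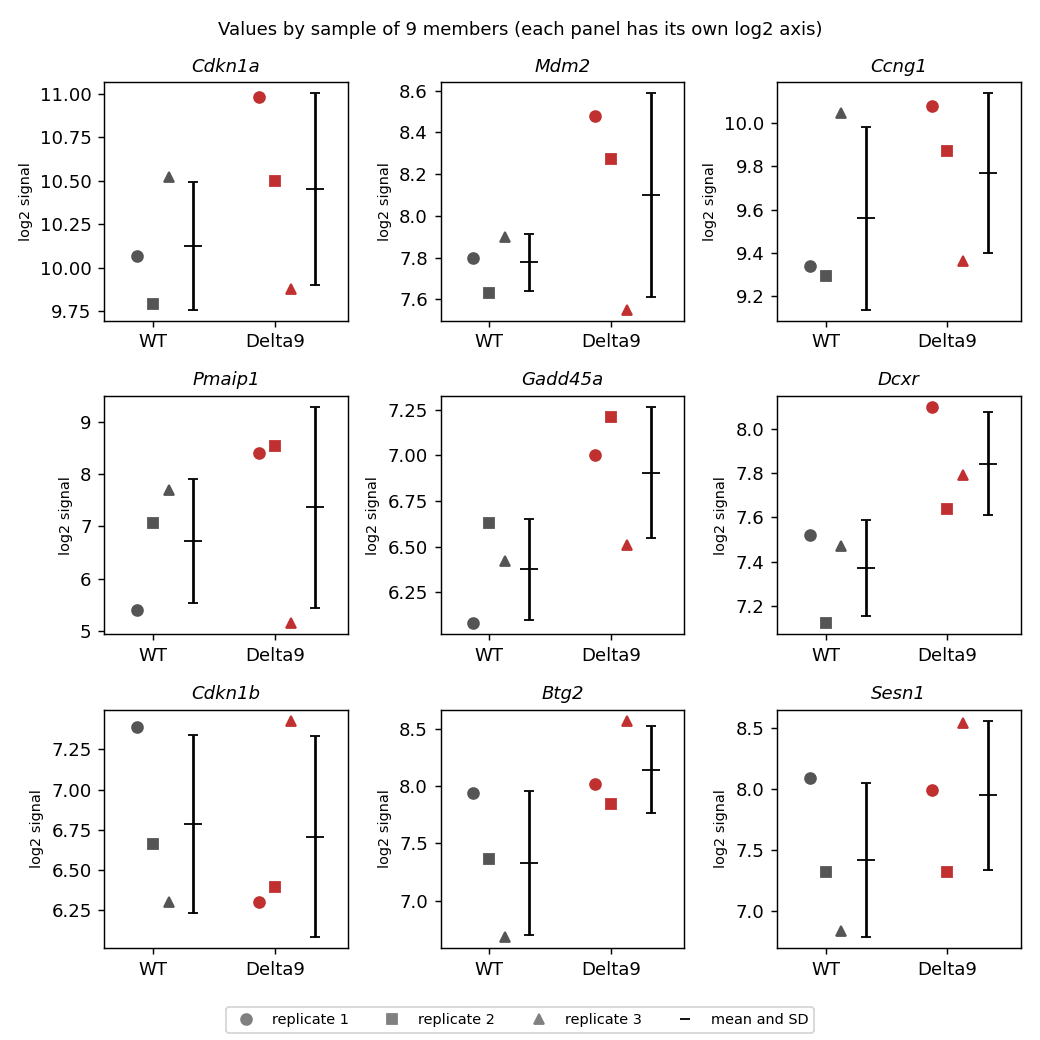
Log2 signal by sample of 9 genes in WT (grey) and Delta9 (red), with the replicate number as the symbol and the mean and SD (n = 3) beside each group. Dcxr is the gene whose groups do not overlap; in Cdkn1b, Btg2 and Sesn1 the Delta9 replicate 3 triangle is the highest Delta9 point, and in Cdkn1a, Mdm2, Ccng1, Pmaip1 and Gadd45a it is the lowest.

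Of the 10 targets that act on the cell cycle or growth, 7 had higher and 3 lower means in Delta9, with a median difference of 0.20, and 0 passed the threshold (limma, with 1 under an unadjusted p of 0.05). Among all genes 46.8% were higher, 0.0605% passed and 10.6% lay under that unadjusted p. Btg2, an antiproliferative protein that promotes mRNA deadenylation, had the largest difference of the whole set. It read 8.02, 7.84 and 8.57 in Delta9 and 7.94, 7.36 and 6.68 in WT. WT replicate 1 lay within the Delta9 range and WT replicate 3 far below it. The difference was 0.82, or 1.76-fold (SE 0.34, 95% interval 0.02 to 1.61, adjusted p 0.463). Leaving out WT replicate 3 lowered the estimate to 0.49, and leaving out WT replicate 1 raised it to 1.13. A dimmer Btg2 probe set, 1448272_at, differed by 0.22 (SE 0.20).

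Gadd45a, a stress sensor that p53 induces, was at 7.00, 7.21 and 6.51 in Delta9 and 6.08, 6.63 and 6.42 in WT. Delta9 replicate 3 fell just below the highest WT sample, which is the one overlap between the groups. The difference was 0.53, or 1.44-fold (SE 0.23, 95% interval -0.01 to 1.07, adjusted p 0.473). Its relatives went the other way in their means. Gadd45b, which TGF-beta and NF-kappaB signals also induce, differed by -0.18 (SE 0.28) on 1449773_s_at but by 0.28 (SE 0.28) on 1450971_at. Gadd45g, read at 9.52, 9.46 and 7.94 in Delta9 and 8.69, 9.45 and 9.78 in WT, differed by -0.33 (SE 0.47), and its Delta9 replicate 3 value was the lowest of all.

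Sesn1, a sestrin that restrains mTORC1 and is also induced by FoxO factors, was at 7.99, 7.32 and 8.54 in Delta9 and 8.09, 7.32 and 6.84 in WT. As with Cdkn1b and Btg2, Delta9 replicate 3 and WT replicate 1 were the highest of their groups. These 3 genes are the whole of that class among the 31 (9.68%), against 16.3% of all genes. The Sesn1 difference was 0.53 (SE 0.40), and its 3 other probe sets differed by 0.12 to 0.65, all with the same sign. Ccng1, cyclin G1, a p53 target that brings a phosphatase to Mdm2, read 10.08, 9.87 and 9.36 in Delta9 and 9.34, 9.29 and 10.05 in WT. High and low values occurred in both groups, and the difference was 0.21 (SE 0.26), or 0.06 without Delta9 replicate 1 and 0.46 without WT replicate 3. Its other probe sets, 1450016_at and 1450017_at, differed by 0.50 (SE 0.35) and 0.58 (SE 0.39). Zmat3, a zinc finger RNA-binding protein, read 8.11, 8.15 and 7.37 in Delta9 and 7.30, 7.04 and 7.89 in WT. Its difference of 0.46 (SE 0.29) again left Delta9 replicate 3 inside the WT range. The polo-like kinases Plk2 and Plk3 differed by -0.02 (95% interval -0.67 to 0.63) and 0.18 (-0.42 to 0.78), and the spindle protein gene Psrc1 by 0.13 (-0.83 to 1.10).

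Of the 10 measured cell death targets, 8 had higher and 2 lower means, with a median difference of 0.18, and 0 passed the threshold (limma, with 0 under an unadjusted p of 0.05). Among all genes 46.8% were higher, 0.0605% passed and 10.6% lay under that unadjusted p. Pmaip1, which encodes Noxa, a BH3-only protein that neutralises Mcl1, had the widest spread of the set. It read 8.41, 8.53 and 5.15 in Delta9 and 5.40, 7.07 and 7.70 in WT. Delta9 replicate 3 and WT replicate 1 deviated by -3.32 and -1.99 log2 from the mean of the other samples of their group, and the difference of 0.64 had an SE of 0.98. Leaving out WT replicate 1 made that difference -0.02, and leaving out Delta9 replicate 3 made it 1.75. Bbc3, which encodes Puma, the other BH3-only target, kept to a narrow range. It read 6.19, 5.92 and 5.87 in Delta9 and 5.91, 5.75 and 5.66 in WT, and the difference was 0.22 (SE 0.15).

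Among the death receptors, Fas differed by -0.28 (SE 0.27), with WT replicate 3 at 6.43 above the other 5 samples, which ran from 5.35 to 5.85. Without that sample the Fas difference was 0.00. Tnfrsf10b, the receptor of TRAIL, was dim, between 2.67 and 3.56, and differed by 0.04 (95% interval -0.47 to 0.56). Eda2r, a receptor of the ligand EDA-A2, read 6.12, 5.48 and 4.54 in Delta9 and 4.25, 5.11 and 5.42 in WT. Again the lowest of each group were Delta9 replicate 3 and WT replicate 1, and the difference was 0.46 (SE 0.45), or 0.09 without Delta9 replicate 1 and 0.88 without Delta9 replicate 3.

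Among the remaining death effectors, Ei24, a protein of the endoplasmic reticulum, differed by 0.36 (SE 0.30), and Trp53inp1, a stress protein linked to autophagy, by 0.38 (SE 0.32). Aen, an exonuclease that promotes apoptosis, differed by 0.14 (SE 0.36). Phlda3, a repressor of AKT, read 8.52, 8.20 and 7.00 in Delta9 and 7.44, 7.78 and 8.49 in WT, a difference of 0.00 (SE 0.43) from wide ranges. Perp, a protein of desmosomes in epithelia, was at 2.37 to 2.54 in 5 samples and at 3.74 in WT replicate 3. Its difference of -0.50 (SE 0.32) rested on that sample, and without it the difference was -0.08. Epithelial markers were low in all samples, 8 of 10 below the median signal, with a mean of 3.75 on WT replicate 3 and 3.53 to 3.63 on the others; their part in the Perp value was not tested. WT replicate 3, on which the Perp, Fas, Ephx1 and Btg2 values lean, also had the widest gap between the 3′ and 5′ actin control probe sets, at 1.41 log2, where the other 5 arrays had 0.51 to 0.86. The part of that measure of RNA quality in these values was not tested.

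Of the DNA repair and metabolic targets, Dcxr, the reductase that makes xylitol from L-xylulose, was the gene of the set with separated groups. It read 8.10, 7.64 and 7.79 in Delta9 and 7.52, 7.12 and 7.47 in WT. The lowest Delta9 sample lay 0.12 log2 above the highest WT sample, and the difference was 0.47, or 1.39-fold (SE 0.18, 95% interval 0.05 to 0.90, adjusted p 0.425). Ephx1, microsomal epoxide hydrolase, differed by -0.46 (SE 0.31), and by -0.14 without WT replicate 3, whose value of 8.80 was the highest. Rrm2b, the p53-induced subunit of ribonucleotide reductase, had the tightest values of the set, from 5.79 to 6.01, and differed by 0.04 with a 95% interval from -0.29 to 0.36. Polk, a translesion DNA polymerase, differed by -0.04 (SE 0.26).

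**Figure D4:**
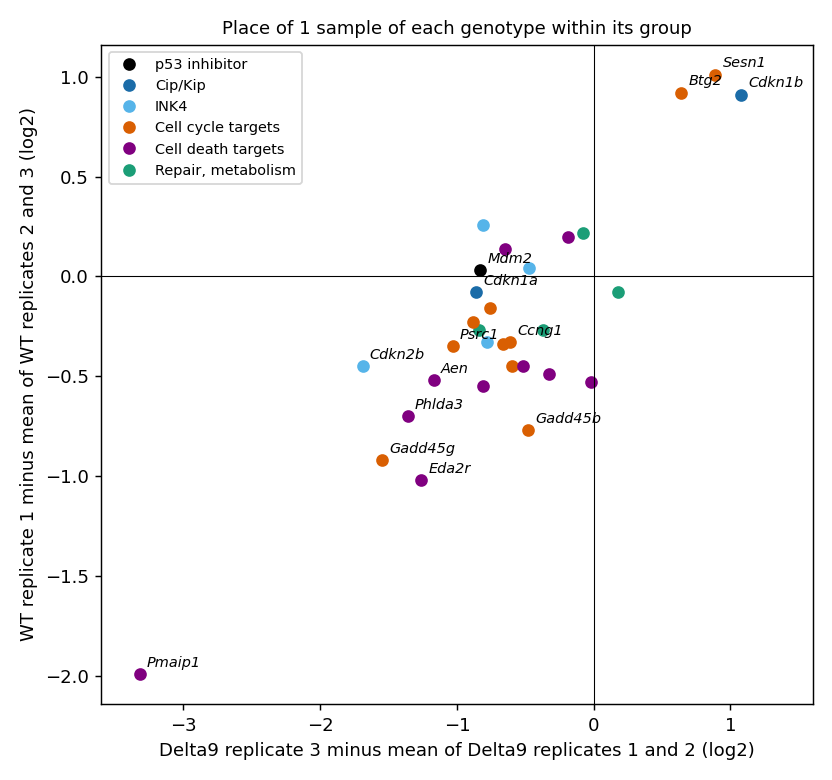
Each of the 31 genes by how far Delta9 replicate 3 lay from the mean of the other Delta9 samples (x axis, log2) and WT replicate 1 from the mean of the other WT samples (y axis, log2), coloured by role. Most points lie at the lower left, Pmaip1 farthest at -3.32 and -1.99, and Cdkn1b, Btg2 and Sesn1 lie at the upper right.

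The comparison was repeated within the parts of the arrays by spike-in signal, which stand across the genotypes. The larger part leaves out Delta9 replicate 3, the lowest Delta9 sample for 25 of the 31 genes. Higher counts and differences in Delta9 there follow in part from that and are not independent support. On the 4 arrays with the higher signal, Delta9 replicates 1 and 2 against WT replicates 2 and 3, 24 of the 31 genes were higher in Delta9, where 46.3% of all genes were, with a median of 0.33 log2 against -0.02. Values did not overlap for 13 of the 31, all higher in Delta9, against 49.1% of all genes on either side and 22.9% on the higher side. An unadjusted p under 0.05 was reached by 6, all higher (8.17% of all genes), but 0 of the 31 passed the adjusted threshold in limma, which 0.335% of all genes did. Pmaip1 differed by 1.09 (SE 0.22, adjusted p 0.136), Btg2 by 0.91 (SE 0.24, adjusted p 0.187), Mdm2 by 0.61 (SE 0.15, adjusted p 0.165), Cdkn1a by 0.59 (SE 0.27, adjusted p 0.368) and Gadd45a by 0.58 (SE 0.15, adjusted p 0.180) there. In these 4 arrays the difference between the 3′ and 5′ Gapdh control probe sets, a measure of RNA quality, was 0.25 and 0.23 log2 in Delta9 and 0.49 and 0.51 in WT, so genotype and that measure cannot be told apart.

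In the remaining pair, Delta9 replicate 3 against WT replicate 1, which allows no test and had equal Gapdh values of 0.57, 13 of the 31 genes were higher and 18 lower, with a median of -0.15, where 49.4% of all genes were higher and their median was -0.00. Cdkn2b differed by -1.09, Cdkn2a by -0.74, Mdm2 by -0.25 and Cdkn1a by -0.19 in that pair, whereas Btg2 differed by 0.63, Sesn1 by 0.45 and Gadd45a by 0.43. The difference between the parts was tested as an interaction in the fit of all genes, with 2 residual degrees of freedom, all from the 4 arrays, since the pair has 1 array per genotype. The test was added after Delta9 replicate 3 had been seen to be low for these genes, so it restates that and is not independent support. It had an unadjusted p under 0.05 for 5 of the 31, Cdkn2a, Cdkn2b, Mdm2, Pmaip1 and Gadd45g, all more positive in the 4 arrays, against 5.40% of all genes. None of the 18193 genes passed after adjustment, and the lowest adjusted p among the 31 was 0.724. With the part as a block in limma, 0 of the 31 passed (0.819% of all genes did). Gadd45a and Btg2 came nearest, with adjusted p of 0.0922 and 0.0947. That block is balanced across the genotypes, so it leaves the difference of every gene as it was.

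**Figure D5:**
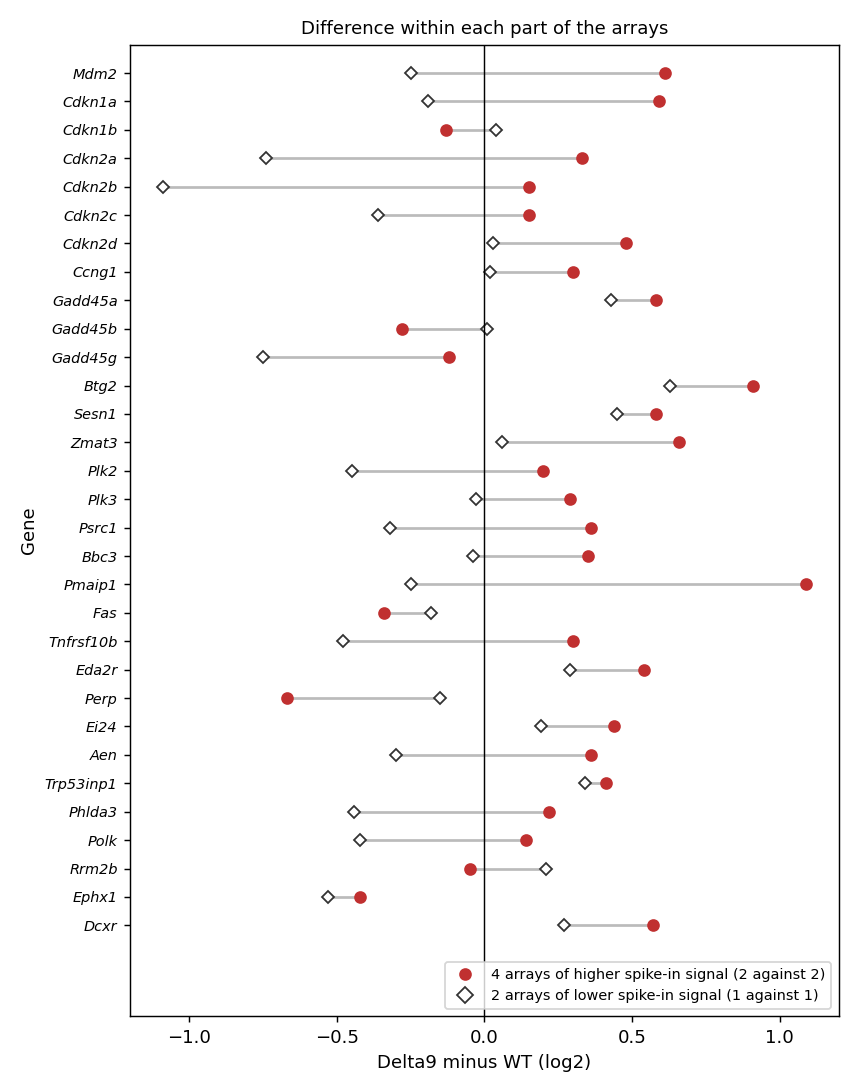
Difference of each of the 31 genes between Delta9 and WT (x axis, log2) on the 4 arrays with higher spike-in signal (red circles, 2 against 2 samples) and in the 2 arrays of lower signal (open diamonds, 1 against 1, no test). For Cdkn2b, Cdkn2a, Mdm2, Cdkn1a and Pmaip1 the circle is above 0 and the diamond below it; for Gadd45a, Btg2 and Sesn1 both are above 0.

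Signals of cell type markers also differed between the samples. Fibroblast markers were bright in all of them but had lower means in Delta9 for 10 of 10, with a median difference of -0.25. Of all genes 46.8% were higher in Delta9. In limma 0 of the 10 passed the threshold, and 3 lay under an unadjusted p of 0.05, against 10.6% of all genes. The Delta9 samples averaged 10.23, 10.09 and 10.28 over that list, below the WT samples at 10.49, 10.65 and 10.69, without overlap. Gene by gene, 2 of the 10 did not overlap (20.0%), against 17.3% of all genes. The part of fibroblast content in the values of the 31 genes was not tested. All 15 macrophage markers were higher on average in Delta9, with list means of 10.10, 9.91 and 10.59 in Delta9 and 10.07, 9.35 and 7.83 in WT, and none of the 15 lay below the median signal. In limma 0 of the 15 passed the threshold, and 4 lay under an unadjusted p of 0.05, against 10.6% of all genes. Gene by gene, 7 of the 15 did not overlap (46.7%), against 17.3% of all genes. In such mixed RNA, fewer cells of a type and less RNA per cell cannot be told apart. With the macrophage mean as a covariate, 27 of the 31 genes were higher in Delta9, where 53.7% of all genes were, with a median of 0.35. An unadjusted p under 0.05 was then reached by 6, all higher (5.11% of all genes), and 0 passed after adjustment (0.0165% of all genes passed). The estimate of Btg2 went from 0.82 to 0.16 and that of Sesn1 from 0.53 to -0.16, while Cdkn1a went from 0.33 to 0.69 and Trp53inp1 from 0.38 to 0.98 (SE 0.22, adjusted p 0.486). Cdkn1b went from -0.08 to -0.69 (SE 0.33) and Pmaip1 from 0.64 to 2.10 (SE 0.98). The sign of the difference changed for 11 of the 31 genes. The lowest macrophage sample, WT replicate 3, held the lowest values of Btg2 and Sesn1, and was also the array with the widest actin gap. Because the macrophage mean itself was higher on average in Delta9, this fit cannot fully separate it from genotype. The part of macrophage content in the values of the 31 genes was not settled by it.

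The proliferation genes that CDK inhibitors hold down were read beside them, and several gave high signals in these cultures. Mki67, a marker of cycling cells, read 8.11 to 8.96 over the 6 samples, at the 91.2 percentile of the genes' mean signals, and Pcna, the DNA polymerase clamp, 10.09 to 11.20, at the 98.6 percentile. Means were higher in Delta9 for 17 of 19, with a median difference of 0.27, against 46.8% of all genes and a median of -0.01. In limma 0 passed the threshold (0.0605% of all genes did). Under an unadjusted p of 0.05, 2 were higher, Pcna with 0.58 and Cenpa with 0.66, against 4.54% of all genes. Relative to each gene's mean over the samples, the arrays averaged 0.32, 0.53 and -0.40 in Delta9 and -0.40, 0.07 and -0.11 in WT. The 31 genes averaged 0.38, 0.20 and -0.36 in Delta9 and -0.23, -0.16 and 0.18 in WT. Both sets were thus lowest on Delta9 replicate 3 among the Delta9 samples and on WT replicate 1 among the WT samples. Whether growth state set the values of the p53 targets was not tested.

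Of 49 further genes of the pathway that were measured, 28 had higher and 21 lower means, with a median of 0.02, and 0 passed the threshold in limma. Among all genes 46.8% were higher, the median was -0.01 and 0.0605% passed. Under an unadjusted p of 0.05 in limma lay 1 of the 49, lower in Delta9, against 10.6% of all genes. That gene was Sesn3, a sestrin induced by FoxO factors, at 6.03, 6.30 and 6.78 in Delta9 and 7.59, 7.20 and 7.35 in WT. Every Delta9 sample was below every WT sample, and the difference was -1.01 (SE 0.22, adjusted p 0.222). The groups did not overlap for 6 of the 49 (12.2%), 3 higher and 3 lower, against 17.3% of all genes. Next among the lower genes were Trp53i13 with -0.37 (SE 0.16), Cbx7, a Polycomb protein that represses Cdkn2a, with -0.33 (SE 0.16), and Mdm4, the partner of Mdm2 in restraining p53, with -0.28 (SE 0.16). Nearest among the higher ones were Apaf1, the core of the apoptosome, with 0.34 (SE 0.16), E2f1, a factor of S-phase entry, with 0.31 (SE 0.16), Pidd1, a death-domain protein that p53 induces, with 0.29 (SE 0.14), and the survival gene Bcl2l1 with 0.26 (SE 0.13). Their adjusted p ran from 0.478 for Trp53i13 to 0.587 for Mdm4.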

How the data were processed

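Per the labels' protocols, Trizol extracts were labelled with biotin and hybridised to 1 Affymetrix array per sample. The authors' deposited values are log2 probe set summaries of 45101 probe sets, the base being inferred from their range; the array medians of 3.35 to 3.43 show a near-common scale, and the method of summary and normalization is not given in the sources used here. Without detection calls, a dim gene is described by its signal, and the number of arrays limits the precision. After 64 control probe sets were left out, 34945 had 1 gene symbol, 932 several and 9160 none, and 18193 genes were tested. All 31 measured genes matched a RefSeq entry by Entrez identifier.

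Delta9 was compared with WT in limma 3.58.1 (R 4.3.3; lmFit and eBayes with a variance trend) on the deposited values, with no filter, and p-values were adjusted by Benjamini-Hochberg over all genes (threshold 0.05); the scripts were tested on simulated data. Other probe sets were tested in a fit of all probe sets. Genes named are all 31, Lmna, and of the further pathway genes those past the threshold and the 4 of lowest p in each direction; Pcna and Cenpa were named after their values were seen. The genes, lists, roles and alternatives were chosen with earlier results of these data known, so counts over a list are a description. Alternatives were quantile normalization, leaving out dim genes, averaging the probe sets of a gene, dropping _x_at and _s_at probe sets, other variance models, array weights, a block for the replicate number, 2 other thresholds, the spike-in part as a block or the 4 arrays of higher signal alone, the macrophage mean as a covariate, and leaving out each sample. The pair of lower-signal arrays, the interaction and the promoter search were added after seeing the data. Figures were drawn with matplotlib 3.10.9.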

Additional observations from a re-analysis of the deposited data

How the results depend on the processing

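None of the 31 genes passed an adjusted p of 0.05 under any alternative that kept this threshold. In the main fit none passed at an adjusted p of 0.1, and 2 passed at an unadjusted p of 0.05. With the spike-in part as a block in limma, Gadd45a and Btg2 lay under 0.1, with adjusted p of 0.0922 and 0.0947. Over all genes the count of 11 became 139 with array weights, 149 with the spike-in part as a block, 61 in the 4 arrays of higher signal, 3 with the macrophage covariate, 48 at an adjusted p of 0.1 and 1928 at an unadjusted p of 0.05. Leaving out single samples gave 1 (without WT replicate 2) to 81 (without Delta9 replicate 3), and 2 without Delta9 replicate 1, 5 without Delta9 replicate 2 or WT replicate 1, and 4 without WT replicate 3. Genes of the set without overlap numbered 3 when a gene's probe sets were averaged (9.68%, against 17.0% of all genes) and 13 in the 4 arrays (41.9%, against 49.1%). With single samples left out, where fewer samples separate more easily, they numbered 3 to 11 (24.5% to 34.6% of all genes); the 11, without Delta9 replicate 3, were 35.5% of the set against that 34.6%. In the pair of lower-signal arrays 13 were higher, against 20. The sign of the difference held in all 17 alternatives with a fit for 12 of the 31 genes, but not all 17 could change it. The other variance models, the blocks for replicate number and spike-in part, and leaving out dim genes do not alter a gene's difference. The sample titles number the replicates and do not say whether equal numbers pair the samples. Deviations from the group means correlated at -0.40, 0.17 and -0.43 between equal numbers. With 3 samples per group these values cannot settle the question. With the replicate block 0 genes passed over all genes.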

Other observations

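Cdkn1c, the imprinted gene of p57 and the third Cip/Kip inhibitor, was not in the set and was chosen after its values were seen. It read 5.07, 4.83 and 7.98 in Delta9 and 6.39, 4.86 and 4.63 in WT, replicates 1 to 3 in order (log2), so Delta9 replicate 3 and WT replicate 1 were the highest of their groups, as for Cdkn1b. The difference between the genotypes was 0.67 (SE 0.87, adjusted p 0.817 by limma). Of the 24 further probe sets of 14 genes of the set, 16 had the sign of the one used, 7 the opposite and 1 a difference that rounds to 0.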
